A study of Caenorhabditis elegans with 2 samples.

Results

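The proteasome subunit genes of Caenorhabditis elegans were read against the binding sites of NHR-6, mapped by chromatin immunoprecipitation and sequencing (ChIP-seq). They were taken as the protein-coding genes of the Ensembl annotation of WBcel235 whose symbols begin with pas-, pbs-, rpt- or rpn-, which gave 33 of 19973 genes. Of these, 14 encode the 20S core (7 alpha and 7 beta subunits) and 19 encode the 19S cap (6 ATPases, 4 other subunits of the base and 9 of the lid). NHR-6 is a nuclear receptor, the counterpart in worms of the mammalian NR4A transcription factors. Both biological replicates were L2 larvae of strain OP90, with the genotype unc-119(ed3) III and the integrated transgene wgIs90, which supplies NHR-6 tagged with eGFP. Whole animals of both sexes were pooled, so signal from different tissues is mixed, and the labels do not name the promoter of the transgene. The 2 samples form a single group, and neither an input nor an untagged strain was analysed here.

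The proteasome degrades proteins marked with ubiquitin. Its barrel-shaped core is a stack of rings in which the outer alpha rings gate the entrance and the inner beta rings carry the proteolytic sites. The cap binds ubiquitinated proteins, removes the ubiquitin, and unfolds and feeds the chain into the core through its ring of ATPases. All subunits are needed in set proportions, and in worms the transcription factor SKN-1 is known to raise proteasome gene expression when proteasome function is impaired.

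A gene was counted as having a summit where the highest point of a peak fell in its promoter window, which ran from 1000 bp before an annotated 5′ end to 200 bp past it. The authors' optimal set held 1662 peaks, all of which were the highest by signal of the pooled relaxed list. Each relaxed list (replicate 1, replicate 2 and both pooled) held 30000 peaks, weak candidates included. Signal is the authors' own value for a peak, and rank 1 is the highest signal in a list. Read depth is unknown from these lists. Part of chromosome V held no summit in any of the lists used. Stretches of over 100 kb without a summit numbered 4, all on V, and the longest ran from 11929184 to 14800271 on ce11 (2.87 Mb, 715 protein-coding genes). The core gene pas-1 and the ATPase gene rpt-1 lie in it, so a count of no summit for these genes is a count for the whole stretch. The reason for the stretch was not tested. The optimal count of proteasome genes and the pooled relaxed counts of core and cap are also given without the genes in these stretches.

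Optimal summits fell in the windows of 7 of the 33 proteasome genes (21.2%, exact 95% interval 8.98 to 38.9%), beside 5.94% of all protein-coding genes. They were rpn-3, rpt-2, pas-4, pas-5, pbs-1, rpn-11 and rpt-6. Outside the stretches without summits the count was 7 of 31 (22.6%), beside 6.23% of all genes. The sequences around the summits of rpn-3, rpt-2, pbs-1 and rpn-11 are shown because they are the highest proteasome summit and the ones that hold the letters TGTCAT, a core of the SKN-1 binding site. Each is 201 bases of WBcel235, read 5′ to 3′ on the strand of the proteasome gene with the summit at the central base, from the RefSeq genome. Capitals mark TGTCAT or its reverse complement and, in rpn-11 alone, also the reverse complement of the NR4A element AAAGGTCA, which contains the shorter element AGGTCA. The rpn-3 window, III:8447052-8447252 on the plus strand, held none of the letters searched. The others were V:6017727-6017927 for rpt-2, IV:1709845-1710045 for pbs-1 and II:4044444-4044644 for rpn-11, all on the minus strand.
rpn-3: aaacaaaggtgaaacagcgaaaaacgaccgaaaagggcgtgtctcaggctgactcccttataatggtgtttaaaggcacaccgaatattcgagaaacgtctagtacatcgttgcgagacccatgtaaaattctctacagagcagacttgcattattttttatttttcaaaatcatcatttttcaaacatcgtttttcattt
rpt-2: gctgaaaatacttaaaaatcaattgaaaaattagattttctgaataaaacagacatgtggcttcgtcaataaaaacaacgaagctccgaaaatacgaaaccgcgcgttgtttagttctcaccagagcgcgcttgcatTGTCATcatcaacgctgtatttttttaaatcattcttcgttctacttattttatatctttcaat
pbs-1: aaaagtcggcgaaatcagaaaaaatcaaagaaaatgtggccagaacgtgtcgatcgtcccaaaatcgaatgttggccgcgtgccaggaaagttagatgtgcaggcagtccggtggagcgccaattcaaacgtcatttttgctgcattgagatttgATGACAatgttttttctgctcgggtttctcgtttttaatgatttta
rpn-11: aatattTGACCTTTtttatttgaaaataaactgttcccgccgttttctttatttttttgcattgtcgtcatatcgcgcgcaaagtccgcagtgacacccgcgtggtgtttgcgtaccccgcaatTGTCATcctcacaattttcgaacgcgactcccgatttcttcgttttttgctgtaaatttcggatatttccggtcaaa

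In the alpha ring, 2 of 7 genes had an optimal summit, pas-4 and pas-5, beside 5.94% of all genes. At pas-4 the signal was 108.1 in the pooled list (rank 415), 90.6 in replicate 1 (rank 330) and 15.6 in replicate 2 (rank 2018), with the pooled summit 120 bp upstream of the gene. At pas-5 it was 82.3 in the pooled list (rank 724), 68.8 in replicate 1 (rank 588) and 13.9 in replicate 2 (rank 2812). Both alpha genes thus stood high in replicate 1 and below the 1662 highest peaks in replicate 2. The pas-5 summit was 991 bp upstream, at the far edge of the window and inside the small nucleolar RNA gene F25H2.15, and a weaker relaxed summit lay 361 bp upstream. The next upstream protein-coding gene on the same strand, ubc-25, a ubiquitin-conjugating enzyme gene, ends 1446 bp away and had an optimal peak of its own. The pas-4 summit lay 157 bp upstream of the divergent gene rpb-3, which encodes an RNA polymerase II subunit, and inside the non-coding RNA gene C36B1.16.

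The other alpha genes had weak or no summits. At pas-3 the best peak reached a signal of 42.3 in the pooled list (rank 2462), below the lowest optimal signal of 52.6, with rank 7094 in replicate 1 and rank 1735 in replicate 2. At pas-7 a summit appeared in the pooled list (rank 12950) and replicate 1 (rank 23523) but not in replicate 2, and at pas-2 in replicate 2 alone (rank 5781). The genes pas-1 and pas-6 had none in any list. The nearest pooled summit was 563 bp downstream of the pas-6 5′ end, outside the window, and 379447 bp from pas-1.

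In the beta ring, which holds the proteolytic sites, 1 of 7 genes had an optimal summit, beside 5.94% of all genes, and 6 of 7 had relaxed summits in both replicates, beside 25.0% of all genes. At pbs-1, which encodes a catalytic beta subunit, the signal was 72.3 in the pooled list (rank 928), 46.4 in replicate 1 (rank 1280) and 25.5 in replicate 2 (rank 637). Its peak was thus among the 1662 highest in both replicates. The summit (IV, 1709945) lay 200 bp upstream of pbs-1 and 320 bp upstream of the divergent gene K08D12.3. The catalytic subunit gene pbs-2 had pooled rank 3074, with rank 1297 in replicate 2 and 7654 in replicate 1. The structural subunit genes pbs-4 and pbs-3 had pooled ranks 3160 and 4218, and pbs-7 and pbs-6 had ranks 7817 and 12116. The remaining catalytic gene, pbs-5, had no summit in its window, and the nearest pooled summit was 250 bp downstream of its 5′ end.

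Of the 6 ATPase genes of the cap, rpt-2 and rpt-6 had optimal summits (33.3%), beside 5.94% of all genes. At rpt-2 the signal was 133.2 in the pooled list (rank 262), 93.9 in replicate 1 (rank 309) and 42.7 in replicate 2 (rank 175). The summit (V, 6017827) lay 158 bp upstream of rpt-2 and 143 bp upstream of the divergent gene aps-1, which encodes a clathrin adaptor subunit, inside the non-coding RNA gene F29G9.10. At rpt-6 the signal was 58.2 in the pooled list (rank 1389), 26.9 in replicate 1 (rank 3679) and 23.6 in replicate 2 (rank 753), with the summit (III, 12370174) 282 bp upstream. The 2 ATPase genes thus differed in how the replicates placed them, with rpt-2 high in both and rpt-6 high in replicate 2 only. Both rpt-4 (pooled rank 5628) and rpt-3 (pooled rank 5931) had summits in each replicate. The highest at rpt-3 lay 666 bp upstream. That of rpt-4 lay 805 bp upstream of the nearer of its 2 annotated 5′ ends, inside the annotated gene. The same peak was the highest pooled peak of the overlapping upstream gene, and rpt-4 ranked only 23281 in replicate 2. At rpt-5 each replicate had a summit (rank 17701 in replicate 1 and 2278 in replicate 2), but these were 367 bp apart and the pooled list had none. The remaining ATPase gene, rpt-1, lies in the long stretch of V without summits.

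No gene among the other 4 of the base had an optimal summit (exact 95% upper limit 60.2%), beside 5.94% of all genes. The ubiquitin receptor gene rpn-13 came closest, with a pooled signal of 44.2 (rank 2284), rank 4348 in replicate 1 and rank 1677 in replicate 2. It was the highest proteasome gene below the optimal set, ahead of pas-3. The second ubiquitin receptor gene, rpn-10, had pooled rank 14984. Of the large scaffold genes, rpn-2 had a summit in replicate 1 (rank 5261) and none in replicate 2, and rpn-1 had none in any list, with the nearest pooled summit 1027 bp downstream of its 5′ end.

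The lid, the part of the cap that removes ubiquitin, held the highest proteasome peak. Optimal summits were at 2 of the 9 lid genes taken by symbol, rpn-3 and rpn-11, beside 5.94% of all genes. Pooled relaxed summits were at 9 of these 9 (exact 95% interval 66.4 to 100%), beside 41.3% of all genes. A lid subunit gene with another symbol is not counted here. The gene dss-1, placed among the proteasome partners below, had no summit in any list. At the lid subunit gene rpn-3 the signal was 282.9 in the pooled list (rank 44), 201.8 in replicate 1 (rank 54) and 79.3 in replicate 2 (rank 36). The summit (III, 8447152) lay 201 bp upstream of rpn-3 and 243 bp upstream of the divergent chaperone gene hsp-110, so the same peak is counted for both. Nearer still was the 5′ end of the non-coding RNA gene C30C11.14, with the summit 57 bp upstream of it. At rpn-11, which encodes the deubiquitinating enzyme of the lid, the signal was 70.2 in the pooled list (rank 982), 54.9 in replicate 1 (rank 963) and 17.4 in replicate 2 (rank 1535). Its summit (II, 4044544) was 2 bp downstream of the annotated 5′ end, in the first bases of the rpn-11 transcript outside coding sequence. Both lid genes were among the 1662 highest peaks of each replicate.

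The other 7 lid genes ranged from pooled rank 2859 to rank 16169. The highest were rpn-9 (rank 2859), rpn-5 (rank 3005), rpn-12 (rank 3320) and rpn-8 (rank 4331), and all of these had summits in both replicates. Ranks for rpn-6.1, rpn-7 and rpn-6.2 were 10524, 13823 and 16169. The first of these is known in worms for raising proteasome activity when overexpressed. In the replicates rpn-7 was found in replicate 1 only (rank 27438) and rpn-6.2 in replicate 2 only (rank 11398). The rpn-12 summit was shared with the divergent gene rad-23, which encodes a shuttle factor that brings ubiquitinated proteins to the proteasome. Sharing was not particular to rpn-12. The highest pooled peaks of rpn-5, rpn-6.1, rpn-6.2, rpn-7, rpn-8 and rpn-9 were likewise the highest of their upstream neighbours.

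**Figure D1:**
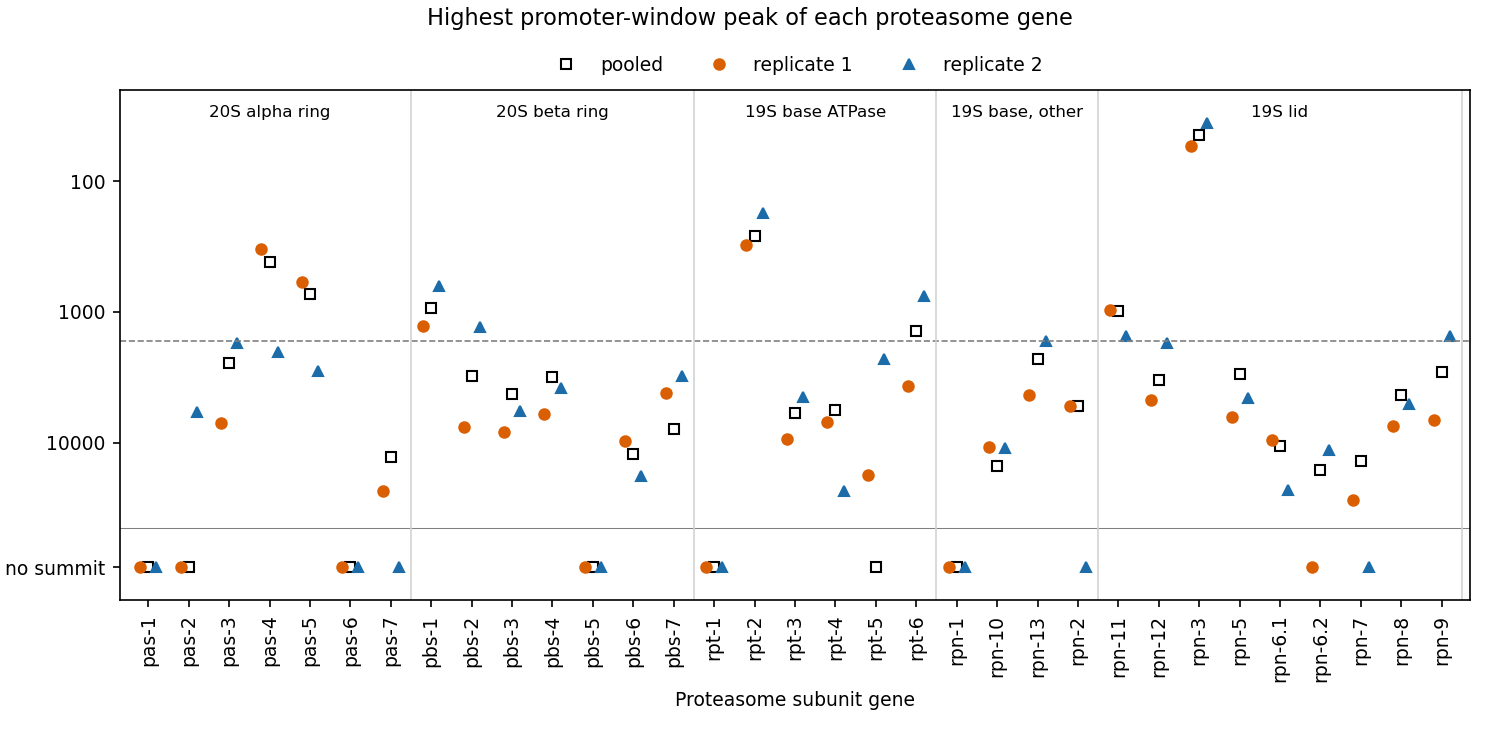
Rank by signal (log axis, high ranks at the top) of the highest peak in the promoter window of each of the 33 proteasome genes in the pooled list (squares), replicate 1 (circles) and replicate 2 (triangles), in the 5 structural groups. The dashed line marks rank 1662, the size of the optimal set, and rpn-3 stands at ranks 44, 54 and 36 while genes on the bottom line have no summit in that list.

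The shares of core and cap genes with an optimal summit were close. Of the core genes 3 of 14 had an optimal summit (21.4%, exact 95% interval 4.66 to 50.8%). Of the cap genes 4 of 19 had one (21.1%, exact 95% interval 6.05 to 45.6%), beside 5.94% of all genes. With so few genes the intervals are wide, and the difference was not tested. In the pooled relaxed list, where 41.3% of all genes had a summit, the counts were 10 of 14 core genes (71.4%) and 16 of 19 cap genes (84.2%). Leaving out the stretches without summits, they were 10 of 13 (76.9%) and 16 of 18 (88.9%), beside 43.3% of all genes. Within the core, optimal summits were at 2 of 7 alpha and 1 of 7 beta genes, beside 5.94% of all genes. Relaxed summits in both replicates were at 3 of 7 alpha and 6 of 7 beta genes, beside 25.0% of all genes.

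Counts were also taken over growing numbers of the highest pooled peaks, where a difference of a gene or 2 sets the order of core and cap, and their difference was not tested. Among the 500 highest peaks, 1 core gene and 2 cap genes had a summit, beside 2.26% of all genes. Among the 5000 highest the counts were 7 of 14 core genes (50%) and 9 of 19 cap genes (47.4%), beside 13.3% of all genes. No proteasome gene was added between the 20000 highest and the end of the list, where the share of all genes went from 31.7 to 41.3%. The median pooled rank was 3117 over the 10 core genes with a summit, 3825.5 over the 16 cap genes and 10113 over all 8249 genes with one. In replicate 1 the medians were 6543.5 for the core and 6566.5 for the cap, and in replicate 2 they were 2956 and 2278, so the order of core and cap turned between lists.

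**Figure D2:**
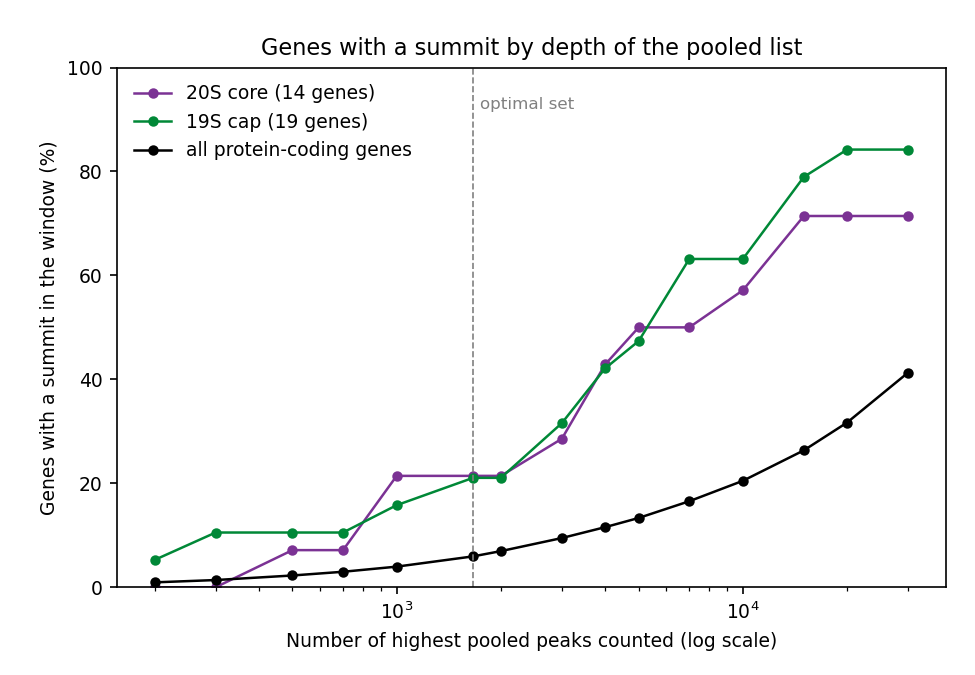
Percent of genes with a pooled summit in the promoter window (vertical axis) against the number of highest pooled peaks counted (horizontal log axis), for the 20S core, the 19S cap and all protein-coding genes. At the 5000 highest peaks the core stands at 50%, the cap at 47.4% and all genes at 13.3%, and the dashed line marks the optimal set.

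The replicates were also read one by one. Replicate 1 had a summit at 26 of 33 proteasome genes (78.8%), beside 40.1% of all genes, and replicate 2 at 25 of 33 (75.8%), beside 41.2%. Summits in both replicates were found at 23 genes (69.7%, exact 95% interval 51.3 to 84.4%), beside 25.0% of all genes. These were 9 of 14 core genes (64.3%) and 14 of 19 cap genes (73.7%), and at 18 of the 23 a summit of each replicate lay within 100 bp of one of the other. A summit in at least 1 replicate was found at 28 of 33 genes, beside 56.4% of all genes. The genes with none were pas-1 and rpt-1, in the long stretch of V, and pas-6, pbs-5 and rpn-1. With both replicates held to a q-value of 0.01 or less, 5 genes were left (15.2%), beside 5.41% of all genes, namely pas-4, pbs-1, rpt-2, rpn-3 and rpn-11.

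**Figure D3:**
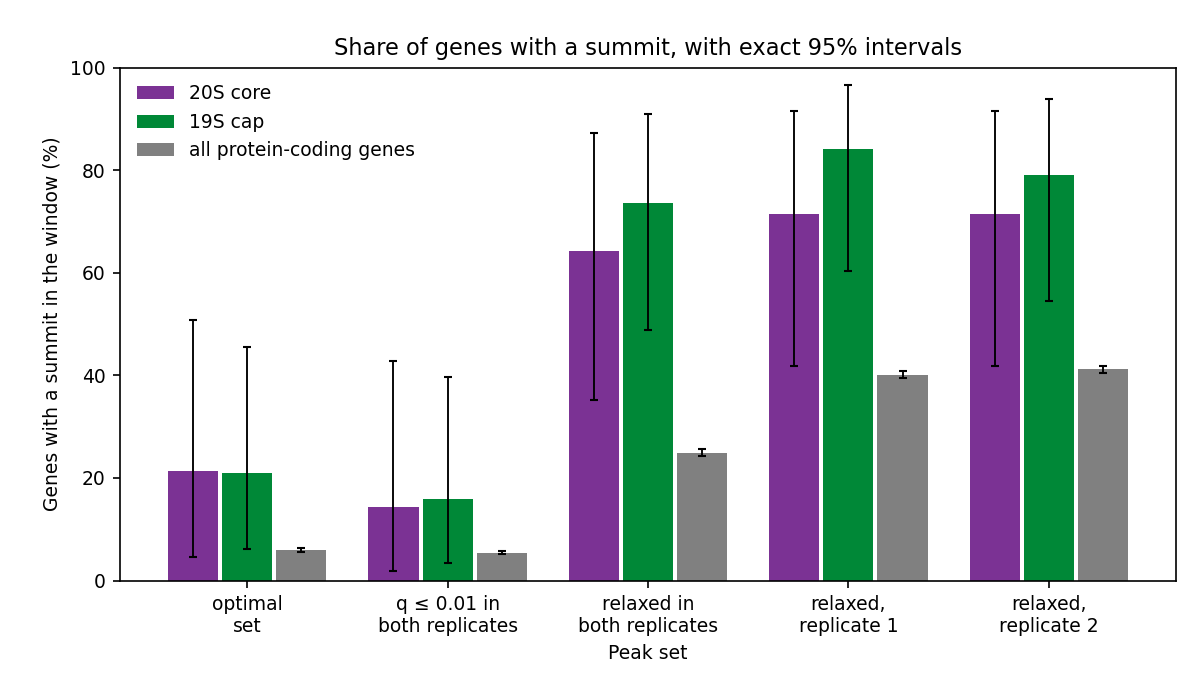
Percent of genes with a summit in the promoter window (bars, with exact 95% binomial intervals) in 5 peak sets, for the 14 core genes, the 19 cap genes and all protein-coding genes. The intervals of core and cap overlap in each set, and summits in both replicates stood at 64.3% of core, 73.7% of cap and 25.0% of all genes.

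The share in the optimal set was also read against genes that had candidates in both replicates. Of the 23 proteasome genes with relaxed summits in both, 7 were in the optimal set (30.4%, exact 95% interval 13.2 to 52.9%), beside 1163 of 4984 such genes overall (23.3%). With 23 genes the interval is wide and holds the share of all genes, and the difference was not tested. The replicates ordered the 23 genes alike in part (Spearman rho 0.67 across genes, 0.57 over all 4984 genes, a description in which genes can share a peak). Of the 23, 16 ranked higher in replicate 2 and 7 in replicate 1, while 51.8% of all genes with both ranked higher in replicate 2. The median rank of the proteasome genes was 6566.5 in replicate 1 (26 genes) and 2812 in replicate 2 (25 genes), beside 10549.5 and 10524 for all genes.

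Which genes were counted as bound also shifted with the replicate. The 1662 highest peaks of replicate 2 alone gave 7 genes, beside 5.96% of all genes, with pbs-2 and rpn-9 in place of pas-4 and pas-5. Core genes then numbered 2 and cap genes 5. Those of replicate 1 alone gave 6 genes, without rpt-6, beside 5.66% of all genes. Only rpn-3, rpt-2, pbs-1 and rpn-11 were in the optimal set and among the 1662 highest peaks of each replicate.

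Of the optimal summits at proteasome genes, 6 of 7 lay upstream of the gene and that of rpn-11 lay at its 5′ end. The window itself reaches 1000 bp upstream and only 200 bp downstream, so most of it is upstream. From 300 bp upstream to 10 bp downstream lay 6 of the 7, beside 664 of all 1186 genes with an optimal summit (56.0%). The 7 distances ran from 991 bp upstream to 2 bp downstream, with a median of 200 bp upstream, beside 250 bp for all 1186 bound genes. Among relaxed summits, those of pbs-3 and rpn-5 were 25 bp and 45 bp upstream and that of rpn-12 was 38 bp downstream.

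**Figure D4:**
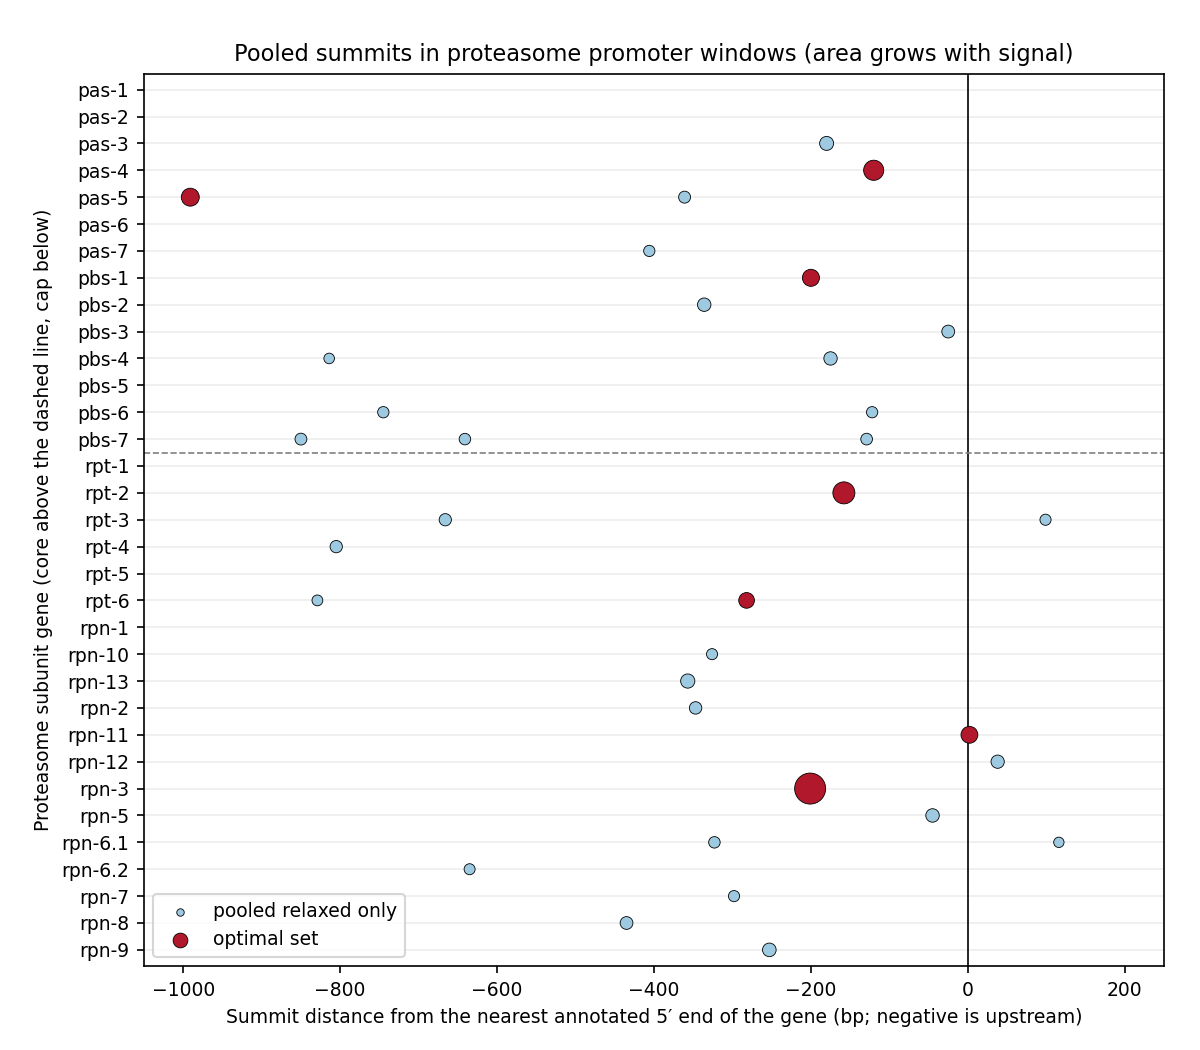
Distance of each pooled summit from the nearest annotated 5′ end of its gene (horizontal axis, bp, negative values upstream) for the 33 proteasome genes (rows), with optimal summits in red, other pooled summits in blue and the area of a circle growing with the signal. Of the 7 optimal summits 6 lie between 282 bp upstream and 2 bp downstream, and that of pas-5 lies 991 bp upstream. Among all 1186 genes with an optimal summit, 56.0% have it between 300 bp upstream and 10 bp downstream.

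Shared promoters were common among these summits. Of the 7, 4 also lay in the window of another protein-coding gene, at rpn-3 with hsp-110, rpt-2 with aps-1, pas-4 with rpb-3 and pbs-1 with K08D12.3, beside 281 of all 928 promoter summits (30.3%). A peak at such a site cannot be assigned to a single gene. By upstream neighbour, 22 proteasome genes had a gene on the opposite strand upstream, and 5 of these had an optimal summit, beside 8.86% of all genes so placed. With an upstream gene on the same strand at 200 bp or more, 2 of 5 had one (pas-5 and rpn-11), beside 3.81%. With such a gene closer than 200 bp, as in worm operons, 0 of 5 had one, beside 3.26%. These were pas-1, pbs-3, pbs-5, rpn-10 and rpn-6.2, the first in the long stretch of V without summits. The gene rpt-4, which overlaps its neighbour, had none, beside 4.51% of all genes so placed.

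The letters of known binding sites were then looked for on both strands. In promoters of 300 bp (250 bp before the 5′ end to 50 bp after it), TGTCAT was found at 12 of 33 proteasome genes, 5 in the core and 7 in the cap, beside 16.3% of all promoters. The genes were pas-2, pas-6, pbs-1, pbs-2, pbs-6, rpt-1, rpt-2, rpn-2, rpn-6.1, rpn-7, rpn-11 and rpn-12. The other core form, TATCAT, was found at 4 (rpt-6, rpn-5, rpn-6.1 and rpn-8), beside 19.4%. The NR4A element AAAGGTCA was found at rpn-11 alone, beside 1.29% of all promoters, and the shorter AGGTCA at rpn-11 and rpn-6.2, beside 8.27%. The GAGA repeat GAGAGA was found at 6 promoters, beside 21.8%. A match is a run of letters and not a measured site.

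At the summits themselves, TGTCAT was found in 3 of the 7 windows of 201 bases, those of rpt-2, pbs-1 and rpn-11 printed above, beside 10.5% of all 1662 optimal windows. Its centre lay 39.5, 57.5 and 26.5 bp from the summit, on the side of the gene in each. The TATCAT form was in the rpt-6 window, beside 8.66%. The NR4A element was in the rpn-11 window only, 90.5 bp from the summit, beside 1.14% of all windows. None of the 7 held GAGAGA (exact 95% upper limit 41.0%), beside 801 of all 1662 optimal windows that did. Their share of G and C had a median of 37.3% (range 33.3 to 46.8%), beside a median of 42.3% in all optimal windows, and its part in these counts was not tested.

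Other genes of the ubiquitin pathway were read the same way. Of 12 proteasome partner genes 2 had an optimal summit (16.7%, exact 95% interval 2.09 to 48.4%), skn-1 and the shuttle factor gene ubql-1, beside 5.94% of all genes. At skn-1, whose product regulates proteasome genes, the signal was 111.0 in the pooled list (rank 385), 75.6 in replicate 1 (rank 484) and 37.1 in replicate 2 (rank 246), with the summit 515 bp upstream. At ubql-1 the pooled signal was 114.5 (rank 360), and the summit was shared with pdi-3, a protein disulfide isomerase gene. The genes sel-1 and aip-1 of this list lie in a stretch of V without summits. The genes ddi-1 and png-1, whose products process SKN-1, had no summit in any list.

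Of 10 ubiquitin and segregase genes 4 had an optimal summit (40.0%, exact 95% interval 12.2 to 73.8%), beside 5.94% of all genes. The segregase extracts ubiquitinated proteins from complexes and membranes ahead of the proteasome, and its gene cdc-48.1 had the highest peak of every list (rank 1). The cofactor genes ufd-3 and ufd-2 had pooled signals of 121.1 (rank 314) and 53.7 (rank 1592), and the ubiquitin gene ubq-2 had 75.3 (rank 873) at a summit shared with frg-1. The paralog cdc-48.2 had pooled rank 5934, and the polyubiquitin gene ubq-1 (rank 1842) and the gene uba-1 for the activating enzyme (rank 1866) lay just below the optimal set. Of 6 genes of the COP9 signalosome, a complex built like the lid, csn-1 had an optimal summit (signal 84.7, rank 678), shared with phf-14. That is 16.7% of these 6 genes (exact 95% interval 0.421 to 64.1%), beside 5.94% of all genes. No expression was measured in these samples, so a summit near a gene carries no statement on its level.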

How the data were processed

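ChIP-seq peak lists on ce11 (the same build as WBcel235) were used for replicates 1 and 2, numbered per the labels, and for both pooled. Per the file list deposited with each sample, relaxed lists came from the alignments and a further undescribed file, and the optimal set came from the relaxed lists by the irreproducible discovery rate. The sources used here do not state the aligner, the peak caller or the threshold. The deposited signal of each peak is the authors' own value, of unstated scaling, and served only within a list. The deposited −log10 q-value gave the q-value limit of 0.01.

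Summits were assigned to the windows of all annotated transcripts of protein-coding genes (Ensembl release 115), and 1 summit could count for several genes. Exact intervals (Clopper-Pearson, 95%) cover counting error only, and genes that share a peak are not independent. The assignment was checked on simulated summits. No test was made, since the 2 samples form 1 group. Every proteasome gene was named, with genes sharing its optimal summits and list genes with optimal summits. Members, lists and letters searched were chosen with earlier results of these data known. The genes uba-1, ubq-1, cdc-48.2, ddi-1, png-1, dss-1, sel-1 and aip-1 and the sequences printed were chosen after their values were seen. The symbol csn-8 of the COP9 list was not matched and was left out. Alternatives covered the peak threshold, replicates, window, gene assignment and overlap. Python 3.11.15, pandas 2.3.3, numpy 2.4.6 and scipy 1.17.1 were used.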

Additional observations from a re-analysis of the deposited data

How the results depend on the processing

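The count of 7 proteasome genes with an optimal summit, beside 5.94% of all genes, was 6 or 7 with either replicate left out. The share of all genes was then 5.96% without replicate 1 and 5.66% without replicate 2. The count was also 6 or 7 with windows from 500 bp upstream (4.71% of all genes) or 2000 bp upstream (7.93%). The same held with any overlap of the peak (6.35%) and with each summit given to its nearest 5′ end only (4.47%). The window from 500 bp upstream lost pas-5, and the nearest protein-coding 5′ end lost rpt-2. Among the 831 highest optimal peaks the count was 4, with 2 in the cap, beside 3.43% of all genes. Proteasome genes with summits in both replicates numbered 23, beside 25.0% of all genes. They fell to 5 at a q-value of 0.01 or less (core 2, cap 3), beside 5.41% of all genes. With the nearest protein-coding 5′ end only they fell to 15 (cap 9), beside 20.7%. With summits of the replicates within 100 bp they numbered 18, beside 13.8%. The median rank of proteasome genes ranged from 2812 to 6566.5 when a replicate was left out, the higher value without replicate 2. In promoters cut to 150 bp upstream, TATCAT was found at 0 and GAGAGA at 3 proteasome genes, beside 13.3% and 15.6% of all. Leaving out the stretches of V without summits, an alternative chosen after seeing the data, could not change a count of proteasome genes with a summit. The proteasome genes in them, pas-1 and rpt-1, had none in any list, so only the number of genes read fell, from 33 to 31. The causes of these changes were not tested. No paired analysis was possible because both samples form a single group. Read depth is unknown, so how far weak or missing summits reflect depth was not tested.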
